A study of Homo sapiens with 9 samples.

Results

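The 3 CDC25 phosphatase genes (CDC25A, CDC25B and CDC25C) and the 2 WEE1-type kinase genes (WEE1 and PKMYT1) were taken from an RNA-Seq count table by gene symbol, 5 of 58735 genes, of which 29048 were counted in 1 or more libraries. The cells were MIA PaCa-2, a pancreatic cancer line labelled as wild type. They were exposed for 24-h to 1 μM SCH772984, an inhibitor of ERK1/2 (3 libraries), to 1 μM compound 1, an inhibitor of TBK1 and IKKε (3 libraries), or to 0.1% DMSO alone (3 libraries). All groups were therefore a single line at a single time and a single dose. The labels do not say whether the libraries of a group came from separate cultures, so the p-values below measure only the spread between these libraries, which may be technical. Each of the 5 genes was found once in the table and passed the filter on low counts in every comparison.

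CDC25 phosphatases and WEE1-type kinases act on the same inhibitory phosphates of the cyclin-dependent kinases (CDKs). WEE1 and PKMYT1 (also called MYT1) add these phosphates and hold CDK complexes inactive, and the CDC25 proteins remove them. CDC25A is known for acting at the G1/S transition as well as at mitosis and is degraded after DNA damage, CDC25B and CDC25C are known mainly for mitotic entry, WEE1 is a nuclear kinase, and PKMYT1 is bound to membranes of the endoplasmic reticulum and Golgi. ERK signaling is a main route by which growth factors drive cells into the cycle.

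The 5 genes lie on 5 chromosomes of GRCh38. CDC25A (ENSG00000164045) is on chromosome 3 from 48157146 to 48188402, minus strand, CDC25B (ENSG00000101224) on chromosome 20 from 3786772 to 3806121, plus strand, and CDC25C (ENSG00000158402) on chromosome 5 from 138285265 to 138338355, minus strand. WEE1 (ENSG00000166483) is on chromosome 11 from 9573681 to 9593457, plus strand, and PKMYT1 (ENSG00000127564) on chromosome 16 from 2968024 to 2980539, minus strand. Whether the counting used the strand is not given in the sources used here, so reads where genes on opposite strands share exons cannot be assigned with certainty. CDC25C shared 293 exon bases (8.78% of its exons) with FAM53C. PKMYT1 shared 1233 exon bases (24.5%) with PAQR4 and 360 (7.15%) with KREMEN2. CDC25A overlapped 3 small noncoding genes with at most 2 counts in a library, WEE1 overlapped a small nucleolar RNA gene with 0 counts, and CDC25B overlapped no annotated gene.

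Because all 5 genes moved together with SCH772984 (below), the start regions of the CDC25 genes are shown here, with 250 bases before and 50 bases after the annotated start, from RefSeq on GRCh38.p14. The table of start regions held 1 entry for CDC25A, 4 for CDC25B and 4 for CDC25C. The windows printed are those with the most GENCODE coding transcripts starting within 50 bases, and for CDC25B 2 windows tied. Capitals mark matches, on either strand, to the cell cycle homology region of mitotic genes (CHR, spelled TTTGAA, with the variant TTCGAA), to the CCAAT box read by NF-Y (CCAAT) and to E2F sites (TTGGCGC, with the variants TTCGCGC and then TTCCCGC).
CDC25A, chr3:48188368-48188667, minus strand: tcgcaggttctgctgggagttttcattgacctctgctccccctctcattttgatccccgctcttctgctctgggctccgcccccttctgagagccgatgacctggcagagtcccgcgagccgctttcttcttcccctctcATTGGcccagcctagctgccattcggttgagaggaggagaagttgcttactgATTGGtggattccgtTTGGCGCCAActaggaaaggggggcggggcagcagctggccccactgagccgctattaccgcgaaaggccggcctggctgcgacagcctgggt
CDC25B, chr20:3795539-3795838, plus strand: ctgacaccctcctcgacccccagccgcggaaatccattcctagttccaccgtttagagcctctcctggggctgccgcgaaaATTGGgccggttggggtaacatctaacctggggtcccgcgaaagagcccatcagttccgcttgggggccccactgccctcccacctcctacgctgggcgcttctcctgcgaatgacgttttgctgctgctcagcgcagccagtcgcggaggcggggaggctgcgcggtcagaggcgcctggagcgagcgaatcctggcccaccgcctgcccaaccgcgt
CDC25B, chr20:3796060-3796359, plus strand: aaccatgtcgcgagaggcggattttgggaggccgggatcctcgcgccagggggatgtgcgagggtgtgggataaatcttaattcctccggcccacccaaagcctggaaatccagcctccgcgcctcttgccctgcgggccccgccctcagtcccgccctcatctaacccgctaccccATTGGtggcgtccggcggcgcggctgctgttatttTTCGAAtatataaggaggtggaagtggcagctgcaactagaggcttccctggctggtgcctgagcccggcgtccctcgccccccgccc
CDC25C, chr5:138331828-138332127, minus strand: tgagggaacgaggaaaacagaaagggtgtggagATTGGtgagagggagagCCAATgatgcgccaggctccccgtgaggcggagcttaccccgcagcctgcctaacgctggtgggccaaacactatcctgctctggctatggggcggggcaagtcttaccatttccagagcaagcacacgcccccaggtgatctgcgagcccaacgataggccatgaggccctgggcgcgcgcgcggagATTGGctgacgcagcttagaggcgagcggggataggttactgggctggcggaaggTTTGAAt

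Counting the annotated start as position 0, the CDC25A window held CCAAT matches at -110 to -106 and -58 to -54 and 2 overlapping E2F matches, on opposite strands, at -43 to -37 and -40 to -34. No CHR match was found in it. The CDC25C window held a CHR match at 43 to 48, just after the start, and 3 CCAAT matches, and the start of FAM53C on the opposite strand falls inside the same window. The second CDC25B window held a CHR match at -38 to -33 and a CCAAT match at -73 to -69, and the first held a CCAAT match alone at -169 to -165. Of all 35116 promoter windows in the table, 16.4% held a CHR match, 34.6% a CCAAT match and 11.03% an E2F match, so single matches to such short motifs are common. Among the windows not printed, 2 for CDC25C and 1 for CDC25B held an E2F match. No factor was measured at these sites.

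Library totals ranged from 9464432 to 10286223 counts with DMSO, from 9652741 to 9840769 with compound 1 and from 11056977 to 13887859 with SCH772984, so the SCH772984 libraries were the deepest. The 9 libraries differed within groups by more than sampling noise (chi-square per degree of freedom at least 2.38), and compound 1 replicate 1 stood apart from its own group (10.6 and 7.97, against 2.72 between replicates 2 and 3). The calls with compound 1 are therefore also given without this library. The epithelial keratin genes KRT8 and KRT18 were at 2491 and 881 CPM with DMSO (CPM being the reads counted on a gene, scaled by the TMM-adjusted total of the library) and at 773 and 167 CPM with SCH772984, while the ductal keratin KRT7 was at 0.207 CPM. Of 8 markers of other cell types, PTPRC, CD3E, PRSS1 and INS were at 0 in every group and CD68 and PECAM1 reached no more than 0.0365 CPM as a group mean. The collagen genes COL1A1 (0.246 and 2.67 CPM) and COL1A2 (482 and 1039 CPM) were higher with SCH772984 than with DMSO, and the part of these markers in the results below was not tested.

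Levels of different genes were compared only per kilobase of exon (CPM/kb). With DMSO, CDC25B had by far the most RNA of the 5 genes, at 71.9 ± 5.35 CPM/kb (SD, n = 3), followed by PKMYT1 at 19.7 ± 1.53, CDC25C at 13.0 ± 0.261, CDC25A at 12.9 ± 0.982 and WEE1 at 4.84 ± 0.283. The neighbors CDC25C and CDC25A did not differ beyond their spread, and the other steps of this order did. CDC25B stood at the 96.3rd percentile of 16028 protein-coding genes with a count, CDC25A at the 77.7th and WEE1 at the 59.9th. With SCH772984 the order was CDC25B (33.5 ± 0.555 CPM/kb), PKMYT1 (4.95 ± 0.300), CDC25C (4.92 ± 0.521), WEE1 (2.43 ± 0.253) and CDC25A (2.09 ± 0.166), so that CDC25A took the last place. PKMYT1 and CDC25C, and likewise WEE1 and CDC25A, could not be separated beyond their spread there. The exon length of WEE1 in the table (9239 bases) is that of all its transcripts together. Taken per kilobase of the longest coding transcript instead, an alternative chosen after seeing the data, WEE1 (13.0) lay beside CDC25A (14.04 CPM/kb) with DMSO, and with SCH772984 WEE1 (6.54) was above CDC25A (2.28) beyond the spread. With these lengths CDC25C (20.4 ± 0.409) also lay above CDC25A with DMSO, and PKMYT1 (10.8 ± 0.654) above CDC25C (7.72 ± 0.818) with SCH772984, so that these pairs were separated and the order of neighbors depends on the length used.

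**Figure D1:**
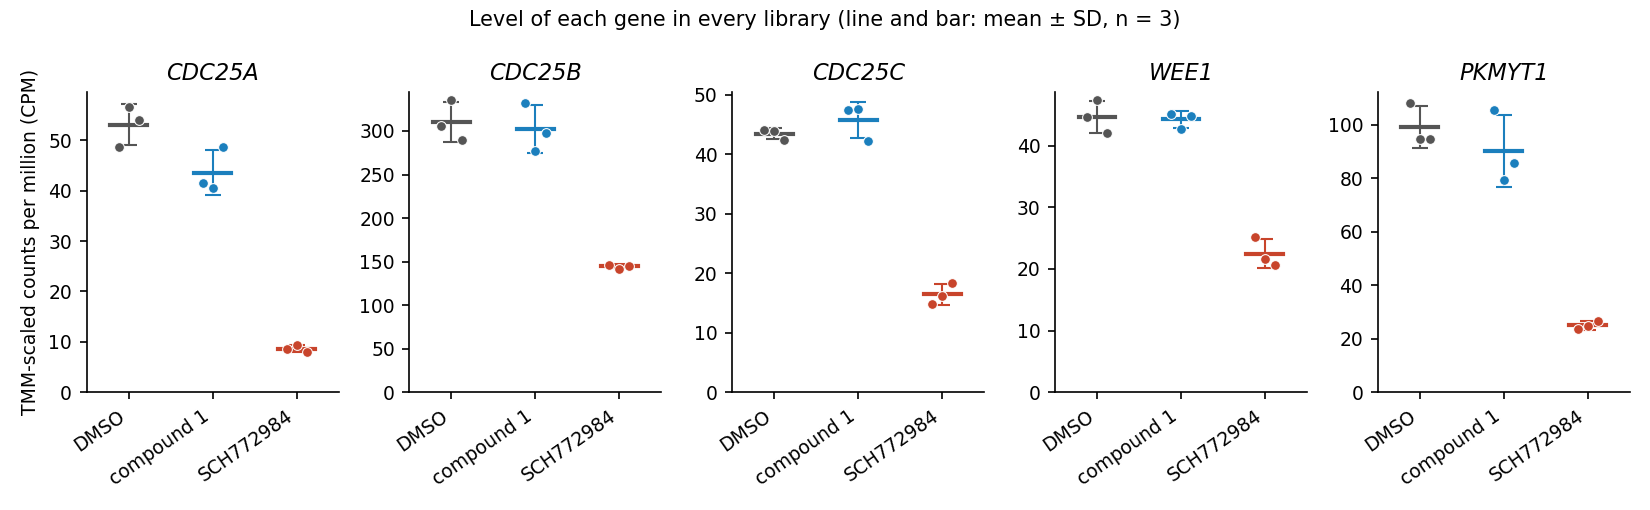
TMM-scaled CPM (y axes, each from 0) of the 5 genes in each library, by treatment, with points for libraries and the line and bar for mean ± SD (n = 3). The SCH772984 libraries lie below all DMSO and compound 1 libraries for every gene, and the DMSO and compound 1 libraries overlap.

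Inhibition of ERK1/2 was followed by lower RNA of all 5 genes. The fall was largest for CDC25A (6.20-fold) and PKMYT1 (3.99-fold), and smaller for CDC25C (2.65-fold), CDC25B (2.16-fold) and WEE1 (2.00-fold). Both the phosphatases and the kinases that oppose them were thus lower. In edgeR's quasi-likelihood test, 5 of 5 genes were lower with SCH772984 than with DMSO at an adjusted p under 0.05, where 35.5% of the 13834 genes tested were lower and 37.2% higher. The libraries of the groups did not overlap for 5 of 5 genes, which held in this direction for 36.3% of all genes. The median log2 fold change of the 5 genes was -1.40, against 0.03 over all genes tested. In bulk RNA, fewer cells in a given phase of the cycle and less RNA per cell cannot be told apart.

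Among the phosphatases, CDC25A was at 48.7, 56.6 and 54.0 CPM in DMSO replicates 1 to 3 and at 8.65, 9.28 and 7.92 CPM with SCH772984. The highest SCH772984 library was far under the lowest DMSO library, and these levels rest on 104 to 118 counts per SCH772984 library. The log2 fold change was -2.63 (SE 0.11, 95% confidence interval -2.86 to -2.41, adjusted p = 5.06e-25, edgeR), and only 93 of the 13834 genes tested had a lower one. CDC25B, the most abundant of the phosphatase RNAs, was at 306, 335 and 290 CPM with DMSO and at 146, 142 and 145 CPM with SCH772984. Its SCH772984 libraries lay close together (SD 2.40 CPM), while the DMSO libraries spread more (SD 23.1 CPM). Its log2 fold change was -1.11 (SE 0.06, adjusted p = 6.21e-20, edgeR). CDC25C was at 44.1, 43.8 and 42.5 CPM with DMSO and at 14.8, 16.2 and 18.3 CPM with SCH772984, again without overlap. Its log2 fold change was -1.40 (SE 0.10, adjusted p = 2.10e-16, edgeR), with 695 genes lower. FAM53C, whose exons overlap those of CDC25C on the opposite strand, had a log2 fold change of 0.01 (SE 0.07, adjusted p = 0.905).

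Among the kinases, WEE1 was at 44.6, 47.4 and 42.1 CPM with DMSO and at 25.1, 21.6 and 20.7 CPM with SCH772984. The groups were separate, and the fall was the smallest of the 5 (log2 fold change -1.001, SE 0.10, adjusted p = 1.77e-12, edgeR), with 1467 of the 13834 genes tested lower. PKMYT1 was at 108, 94.6 and 94.7 CPM with DMSO and at 23.5, 24.6 and 26.5 CPM with SCH772984, the lowest DMSO library being well above the highest SCH772984 library. Its log2 fold change was -1.996 (SE 0.08, adjusted p = 5.83e-25, edgeR), with 235 genes lower. The genes whose exons overlap PKMYT1 went different ways, PAQR4 with a log2 fold change of -0.82 (SE 0.11, adjusted p = 6.23e-09) and KREMEN2 of 1.52 (SE 0.10, adjusted p = 1.12e-17), and their part in the PKMYT1 counts was not tested. When library sizes alone were used for scaling, the median of all genes was 0.17 higher, and CDC25A was at -2.46 and WEE1 at -0.83 on that scale.

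**Figure D2:**
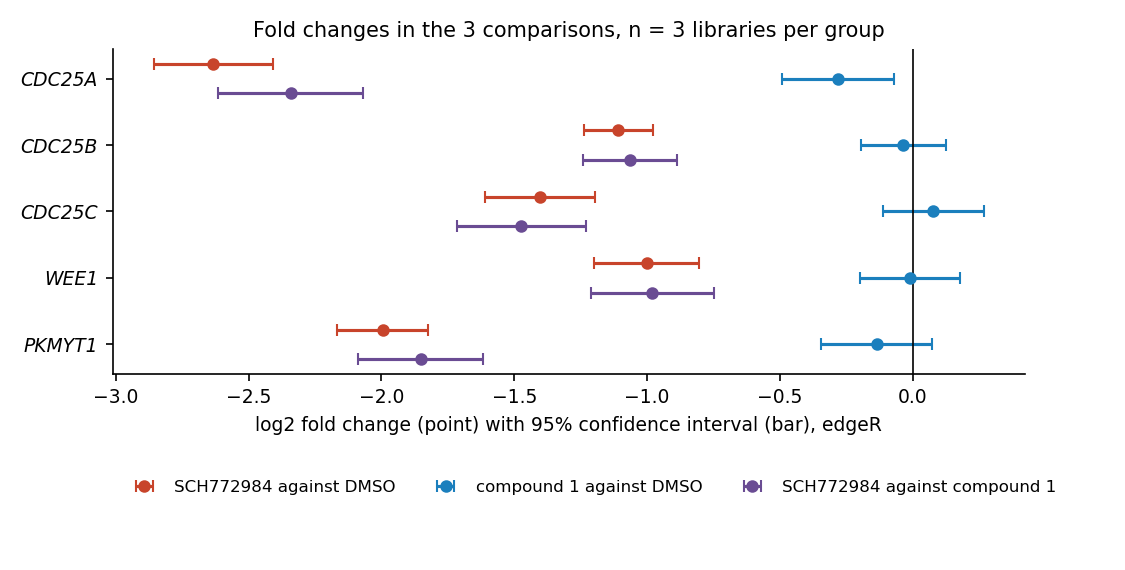
Log2 fold change (x axis) of each gene in the 3 comparisons, with points for edgeR's estimate and bars for the 95% confidence interval (n = 3 libraries per group). The highest upper bound for SCH772984 is -0.75 (WEE1 against compound 1), and with compound 1 only that of CDC25A (-0.49 to -0.07) leaves out 0.

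The unequal falls changed CDC25A relative to its paralogs and opposing kinases. The ratio of CDC25A counts to those of each other gene was taken within each library, so that it does not depend on the scaling between libraries. The log2 ratio to CDC25B was -2.65 to -2.42 with DMSO and -4.20 to -3.93 with SCH772984, a difference of -1.52. The ratio to CDC25C differed by -1.21 and that to WEE1 by -1.63. The smallest difference was from PKMYT1, at -0.63, with ratios of -1.15 to -0.74 with DMSO and -1.74 to -1.41 with SCH772984. In all 4 ratios the SCH772984 libraries lay below every DMSO library, and the two-sided exact permutation test gave p = 0.10 for each (0.133 adjusted over 12 ratios), the smallest p that 3 libraries against 3 can give. All 4 ratios share the CDC25A counts and so are not independent. Only 93 of the 13834 genes tested had a lower log2 fold change than CDC25A, so a lower ratio is not particular to these genes.

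**Figure D3:**
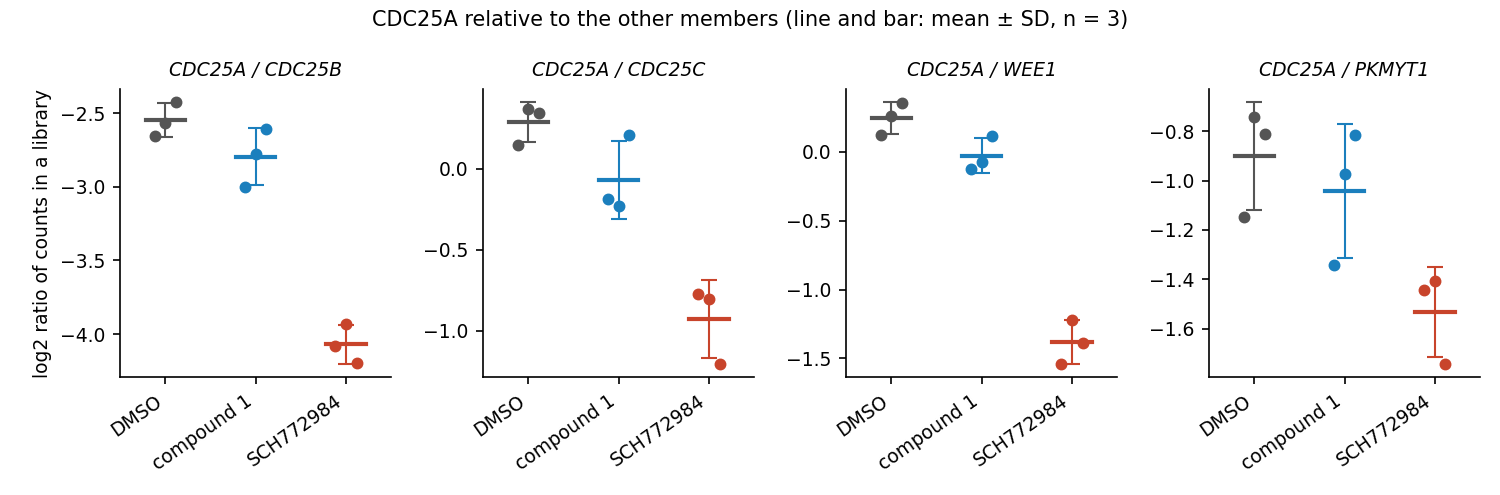
Log2 ratio of CDC25A counts to the counts of each other gene within a library (y axes), by treatment, with points for libraries and the line and bar for mean ± SD (n = 3). SCH772984 libraries lie lowest in all 4 panels, and with compound 1 only the ratio to WEE1 lies below all DMSO libraries.

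The makeup of the phosphatase and kinase RNA shifted with these changes. Of the summed CDC25 RNA per kilobase, CDC25A made up 12.3% to 14.1% with DMSO, 9.97% to 12.7% with compound 1 and 4.68% to 5.64% with SCH772984. CDC25B made up 72.2% to 74.3% with DMSO and 82.0% to 83.8% with SCH772984. Of the summed kinase RNA, WEE1 made up 18.4% to 21.4% with DMSO and 29.8% to 36.8% with SCH772984, with PKMYT1 as the rest. These ranges did not overlap between SCH772984 and DMSO, while that of CDC25C did (12.6% to 13.8% with DMSO and 10.96% to 13.3% with SCH772984). The ratio of summed CDC25 to summed WEE1-type RNA was 3.65 to 4.37 with DMSO, 3.92 to 4.33 with compound 1 and 5.47 to 5.53 with SCH772984. This ratio depended on which genes were summed, in alternatives chosen after seeing the data. Without CDC25B it was 0.953 to 1.12 with DMSO and 0.884 to 0.985 with SCH772984, and the groups overlapped. Without PKMYT1 the direction turned, with 19.9 to 20.4 with DMSO and 14.9 to 18.4 with SCH772984. Per kilobase of the longest coding transcript the full ratio was 1.99 to 2.35 with DMSO and 2.85 to 2.92 with SCH772984, so its value also depends on the length used.

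**Figure D4:**
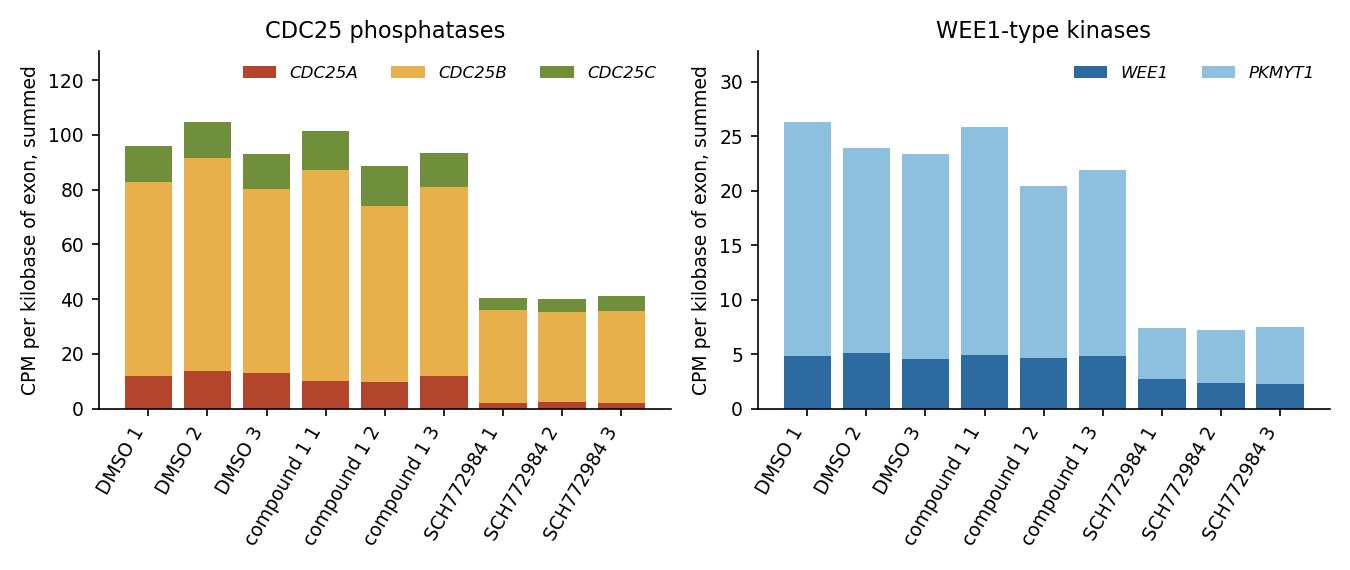
Summed RNA level (y axes, CPM per kilobase of exon) of the CDC25 phosphatases on the left and the WEE1-type kinases on the right, 1 bar per library, divided by gene. CDC25B takes most of the left bars in all libraries and PKMYT1 most of the right bars, and both sums are lowest with SCH772984.

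With compound 1, no gene of the 5 passed the adjusted threshold. CDC25A was at 41.6, 40.5 and 48.7 CPM in replicates 1 to 3, and replicate 3 was the only one to reach the DMSO range (48.7 to 56.6 CPM). Its log2 fold change was -0.28 (SE 0.10, 95% confidence interval -0.49 to -0.07, adjusted p = 0.192, edgeR), and it was the only member with an unadjusted p under 0.05 (0.0128). At this unadjusted threshold 1 of 5 members was lower, as were 7.69% of the 12849 genes tested. After adjustment 0 of 5 members were lower or higher in edgeR, where 0.374% of all genes were lower and 0.49% higher, and DESeq2 on the same genes also gave 0. Groups overlapped for all 5 genes, and 10.6% of all genes lay below DMSO without overlap. The comparisons of both inhibitors use the same 3 DMSO libraries, so that a high or low DMSO library moves both in the same direction.

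The paralogs of CDC25A differed little between compound 1 and DMSO. CDC25B was at 332, 278 and 297 CPM with compound 1 (log2 fold change -0.04, 95% confidence interval -0.20 to 0.13), and CDC25C at 47.4, 47.6 and 42.3 CPM (0.08, interval -0.11 to 0.27). Of the kinases, WEE1 was at 45.2, 42.7 and 44.9 CPM (-0.01, interval -0.20 to 0.18). Each of these intervals holds 0, and log2 fold changes beyond its bounds lie outside it. PKMYT1 was at 105, 79.5 and 85.7 CPM (-0.14, interval -0.34 to 0.07), with replicate 1 inside the DMSO range and the other two under it. Without compound 1 replicate 1, the library that stood apart, PKMYT1 passed as lower (log2 fold change -0.26, SE 0.07, adjusted p = 0.0171, edgeR), and 6.1% of the 13084 genes tested then were lower. CDC25A without this library was at -0.24 (SE 0.09, adjusted p = 0.0807, edgeR) and CDC25B at -0.10 (SE 0.06, adjusted p = 0.266, edgeR). CDC25A relative to WEE1 differed by -0.27 on the log2 scale, with all compound 1 libraries below all DMSO libraries (two-sided exact permutation test, p = 0.10). The ratios to CDC25B (-0.25, exact p = 0.20), CDC25C (-0.36, exact p = 0.20) and PKMYT1 (-0.14, exact p = 0.50) overlapped between the groups.

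Compared directly, the inhibitors at the same dose and time gave different levels of all 5 genes, each lower with SCH772984 than with compound 1. At an adjusted p under 0.05 in edgeR, 5 of 5 were lower, against 32.6% of the 13863 genes tested, and 5 of 5 did not overlap, against 34% of all genes. The log2 differences were -2.34 for CDC25A (SE 0.13, adjusted p = 2.84e-12), -1.85 for PKMYT1 (SE 0.11), -1.47 for CDC25C (SE 0.12), -1.06 for CDC25B (SE 0.08) and -0.98 for WEE1 (SE 0.11, adjusted p = 1.50e-07). The order of the 5 genes was that seen against DMSO.

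The genes around these phosphatases and kinases were described from hand-written lists, by counts and medians, beside shares over all genes tested of 35.5% lower and 37.2% higher with SCH772984 and a median of 0.03. Of 12 tested genes of CDK-cyclin complexes and their CKS subunits, including CDK7, CCNH and MNAT1 of the CDK-activating kinase, 11 were lower and 0 higher with SCH772984 after adjustment (median log2 fold change -1.51). CDK7 did not pass the test (log2 fold change -0.08, adjusted p = 0.423). CCNA2, the S and G2 phase cyclin, had a log2 fold change of -2.11 (SE 0.07, adjusted p = 1.65e-28), and CKS1B, a small CDK subunit, of -2.04 (SE 0.07, adjusted p = 1.16e-27). Of 15 checkpoint kinases and partners, which act on CDC25 proteins after DNA damage, 12 were lower and 1 higher (median -0.80). CLSPN, an adaptor for CHK1 activation, fell most (-2.22, SE 0.10), followed by TIPIN of the replication fork protection complex (-1.39, SE 0.16). ATM, the kinase activated by DNA breaks, rose (0.77, SE 0.09), by an amount that depended on the processing (0.38 to 0.95 in the alternatives). Of 12 mitotic entry kinases and PP2A-B55 regulators, 11 were lower and 0 higher (median -0.99). These included PLK1, which phosphorylates CDC25C, WEE1 and PKMYT1 at mitotic entry (-2.36, SE 0.07), and its coactivator BORA (-1.93, SE 0.16).

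Other lists covered proteins that bind the CDC25 proteins, mark them for degradation or act on transcription of cell cycle genes. Of 7 genes for 14-3-3 proteins, which bind phosphorylated CDC25, 6 were lower (median -0.50), led by YWHAH (-0.92, SE 0.07) and YWHAB (-0.89, SE 0.06). The remaining one, SFN (14-3-3σ), rose from 1.14 ± 0.257 to 19.2 ± 2.67 CPM (SD, n = 3; log2 fold change 4.05, SE 0.22). SFN had only 9 to 14 counts per DMSO library, passed the filter on low counts through the SCH772984 libraries (195 to 301 counts), was too low to be tested with compound 1, and drops out where 10 counts are required in every library. Of 10 components of the ubiquitin ligases for CDC25A and WEE1 and their kinases, 7 were lower and 1 higher (median -0.36), and with scaling by library size alone 5 were lower (median -0.19), where the median of all genes was 0.20. CDCA3 fell most (-1.83, SE 0.08) and CSNK1A1 next (-0.71, SE 0.06), and NEK11, a kinase that marks CDC25A for degradation, rose from 3.02 to 8.09 CPM (1.41, SE 0.21). Of 21 transcription factors and cofactors, comprising E2F and DP factors, pocket proteins, subunits of the MuvB core such as RBBP4, MYBL2, FOXM1, NF-Y and MYC, 16 were lower and 1 higher (median -0.78), or 14 and 3 with scaling by library size alone. E2F2 (-2.14, SE 0.16) and E2F4 (-1.89, SE 0.07) fell most. RBL2, the p130 pocket protein of DREAM, rose by 0.41 (SE 0.08), and by 0.25 to 0.59 in the alternatives of processing. As a check of the treatment, 10 of 11 tested MAPK output genes were lower with SCH772984 (median -3.58), or 7 of 8 (median -1.90) where 10 counts were required in every library, and SPRY4, a feedback inhibitor of the pathway, went from 232 ± 5.19 to 2.01 ± 0.648 CPM. DUSP6, another feedback gene, went from 4.15 to 0.0281 CPM, and EPHA4 rose (1.48, SE 0.06).

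With compound 1, 1 gene of these lists passed the adjusted threshold, and this was CKS2, a small CDK subunit, which was higher (182 ± 7.40 CPM with DMSO and 233 ± 22.1 with compound 1, log2 fold change 0.36, SE 0.08, adjusted p = 0.0383, edgeR). Of all genes, 0.374% were lower and 0.49% higher in this fit. CKS2 passed in all 9 alternatives of processing that kept every library. It passed in only 1 of the 6 fits that left out a library, and in the other 5 the adjusted p was 0.0621 to 0.313. Without compound 1 replicate 1, 11 of 87 tested genes of these lists were lower and 3 higher, where 6.1% of all genes were lower and 3.46% higher. The 3 higher genes were CKS2 (0.28, SE 0.06), CKS1B (0.27, SE 0.06) and ATM (0.44, SE 0.10), and the lower genes included PLK1 (-0.27, SE 0.05) and E2F2 (-0.55, SE 0.15), of which CKS1B, ATM, PLK1 and E2F2 were named with compound 1 after these values were seen. The medians of the lists with compound 1 lay between -0.09 for the MAPK output genes and 0.03 for the CDK-cyclin complexes, against 0.00 for all genes.

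**Figure D5:**
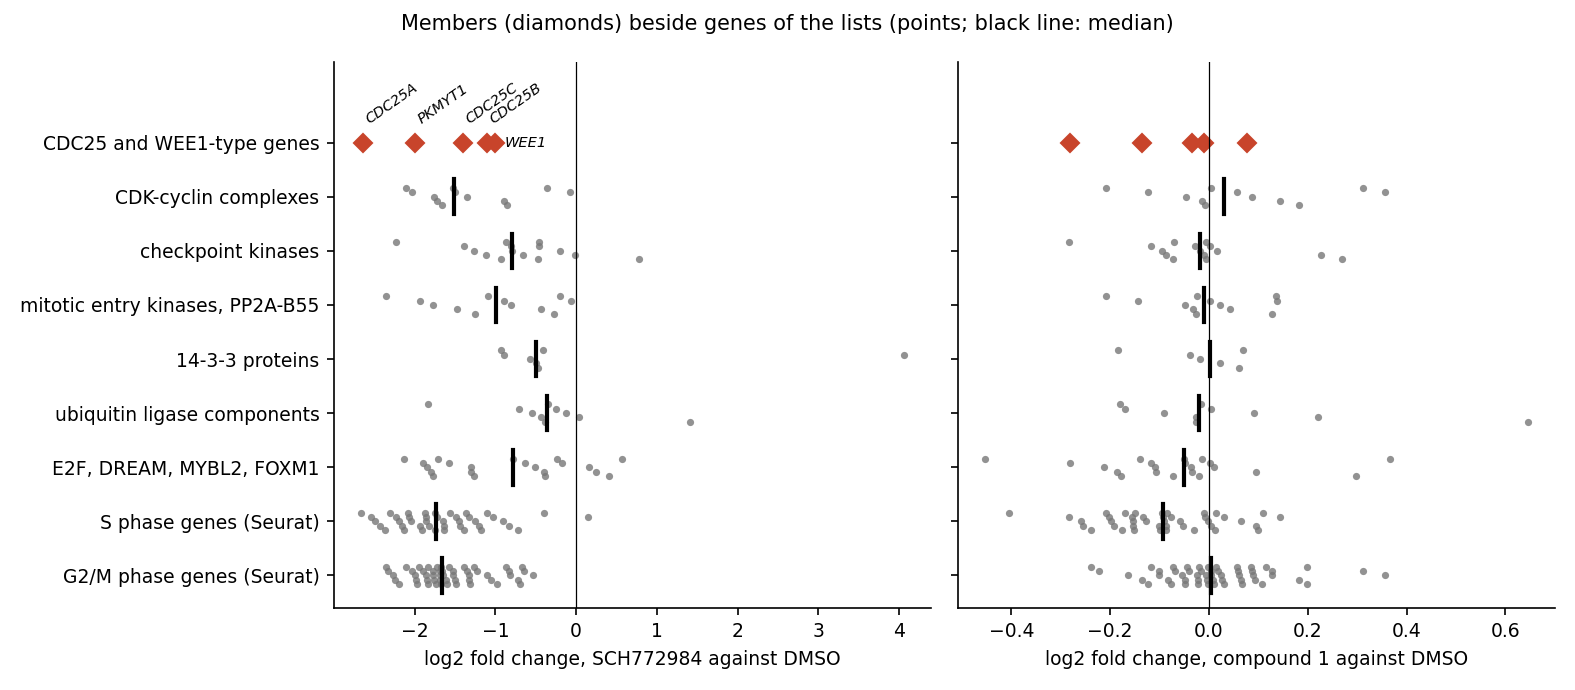
Log2 fold change against DMSO (x axes, different ranges) with SCH772984 on the left and compound 1 on the right, for the 5 genes (diamonds) and the genes of each list (points, with the median as a black line). The MAPK output genes are not plotted. With SCH772984, 1 gene of the plotted lists, in the S phase list, lies below CDC25A. With compound 1 the points lie on both sides of 0, unevenly in some lists. Below 0 are 33 of 42 S phase genes, 16 of 21 of the E2F and DREAM list and 26 of 53 G2/M genes.

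The 5 genes were also set beside the S phase and G2/M phase gene lists of Seurat, with CDC25C left out of the latter. With SCH772984, 41 of 42 tested S phase genes and 53 of 53 G2/M genes were lower after adjustment, with medians of -1.73 and -1.66, where 35.5% of all genes were lower. The remaining S phase gene, USP1, was higher by 0.15 (adjusted p = 0.0451), named here after its value was seen, and passed in 1 of the 6 fits that left out a library and in 4 of 9 other alternatives. CDC25A fell more than all 53 G2/M genes, and of the S phase genes RRM2 alone had a lower value (-2.66, also named after its value was seen). PKMYT1 lay in the lower part of both lists, with 7 G2/M and 13 S phase genes below it. CDC25C, CDC25B and WEE1 fell less than most genes of both lists, with 35, 42 and 44 of the 53 G2/M genes and 29, 35 and 37 of the 42 S phase genes below them. With compound 1, 0 of 53 G2/M genes and 2 of 42 S phase genes had a lower log2 fold change than CDC25A, and 0 to 2 and 1 to 8 genes did when each library was left out in turn (2 and 8 without compound 1 replicate 2, and 1 and 5 without DMSO replicate 2). Of the S phase genes, 0 passed as lower or higher with compound 1 in edgeR, and 10 were lower and 0 higher at an unadjusted p under 0.05 (median -0.09). Of the G2/M genes, 2 were lower and 5 higher at this threshold, and of all genes 7.69% were lower and 7.35% higher. Without compound 1 replicate 1, 5 of 42 S phase genes were lower after adjustment (DTL, MCM5, MCM7, PCNA and UHRF1, named after their values were seen) and 0 higher. Of the 53 G2/M genes, 4 were lower and 6 higher in that fit. Over all 13084 genes tested in it, 6.1% were lower and 3.46% higher.

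The protein-coding genes most like each member were found by the root-mean-square difference in log2 CPM, relative to the DMSO mean, over all 9 libraries and 9947 genes. UHRF1 was nearest to CDC25A (0.0842), with a log2 fold change of -2.49 with SCH772984 and -0.26 with compound 1, followed by PNP (0.128) and SAPCD2 (0.141). UBE2S (0.0721), E2F4 (0.0729) and CD3EAP (0.0773) were nearest to PKMYT1. For CDC25C the nearest genes were DUT (0.0523), POLR2H (0.0660) and DCTD (0.0827), for CDC25B they were ANP32B (0.0499), PHC2 (0.0508) and H3F3B (0.0517), and for WEE1 they were ATIC (0.0376), ABCF1 (0.0383) and METTL13 (0.0433). Among the 5 members themselves, CDC25B and WEE1 were the closest pair (0.105) and CDC25A and WEE1 the farthest apart (0.929). The nearest gene of CDC25A was farther away than that of each other member.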

How the data were processed

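RNA was measured in 9 libraries of MIA PaCa-2 cells, sequenced by Novogene. The authors deposited raw read counts per gene, without normalization, and the submitters' processing notes name HISAT2 2.0.5, featureCounts 1.5.0-p3 and hg38. The strand setting is not given in the sources used here. All gene identifiers and positions matched GENCODE 29 on GRCh38. Libraries were grouped by their labels. Each comparison was fitted on its 6 libraries across all genes with edgeR 4.0.16 in R 4.3.3 (robust quasi-likelihood test, TMM, filterByExpr with a minimum count of 10 and minimum total of 15), with Benjamini-Hochberg adjustment over all genes tested. A gene was called lower or higher at an adjusted p under 0.05. CPM were TMM-scaled, and CPM/kb divided these by the gene length in the table. Ratios were compared by two-sided exact permutation tests (scipy 1.17.1). The genes named were the 5 members, up to 2 called genes with the largest fall and rise in each list except the phase lists, every list gene called with compound 1, and the 3 nearest profiles of each member among genes averaging at least 5 CPM (pseudocount 0.5 CPM). The phase lists came from Seurat 5.3.0. Members, lists and tests were chosen with earlier results of these data known. The steps were tested on simulated data in which few genes changed, so scaling under a change as broad as that with SCH772984 was not tested this way. Alternatives were library size alone, RLE factors, no filter, protein-coding genes only, at least 10 counts per library, 1 fit of all 9 libraries, the replicate number as a block, a gene length trend removed (5 degrees of freedom), DESeq2 1.42.0, an unadjusted p under 0.05 and leaving out each library in turn. Start regions of WEE1 and PKMYT1 and protein sequences were not analysed here.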

Additional observations from a re-analysis of the deposited data

How the results depend on the processing

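All 5 members stayed lower with SCH772984, against DMSO and against compound 1, under every alternative run, with log2 fold changes against DMSO of -2.71 to -2.46 for CDC25A, -2.10 to -1.82 for PKMYT1, -1.498 to -1.23 for CDC25C, -1.19 to -0.93 for CDC25B and -1.19 to -0.83 for WEE1. Against DMSO, the compound 1 calls depended on single libraries and on the threshold: 0 to 1 members were called when each library was left out in turn, the 1 being PKMYT1 without compound 1 replicate 1 (-0.26, against -0.058 without compound 1 replicate 2, adjusted p = 0.0171 and 0.871 in edgeR), and 1 member, CDC25A (-0.28), at an unadjusted p under 0.05 in edgeR. CDC25A was -0.37 to -0.24 with a library left out (adjusted p = 0.0807 to 0.591). CDC25B and WEE1 with compound 1 lay on both sides of 0 with a library left out (-0.10 to 0.02 and -0.05 to 0.03), none of these past the threshold. Same-numbered libraries of different groups deviated together little (correlations -0.10 to 0.16), so the numbers were not taken to pair them. With the replicate number as a block, CDC25A was -0.28 with compound 1 (adjusted p = 0.0960) and -2.63 with SCH772984, and no member's call changed. Of the counts of called genes in the lists, 15 of 270 alternative values against DMSO with SCH772984 and 37 of 270 with compound 1 moved by more than 1.5 times. Per kilobase of the longest coding transcript, 14 of 15 group levels moved by more than 1 SD. With 3 libraries per group, exact tests of ratios cannot go below 0.10, and the 95% confidence intervals of CDC25B, CDC25C and WEE1 with compound 1 reach up to 0.27 from 0 on the log2 scale.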
